A study of Homo sapiens with 4 samples.

Results

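The transcripts described here are 38 genes of the interferon response in A549 cells, 6 of them regulators (IRF1, IRF2, IRF3, IRF7, IRF9 and STAT2) and 32 of them effectors, out of 18132 genes with a probe set of their own on the array. They were taken by name from a list of interferon-stimulated genes, and each gene was read from its probe set of highest mean signal. A549 is an established human lung adenocarcinoma line. The cells were untreated, or were exposed for 48 h to 25 μmol/L dihydroberberine, to 2 μmol/L sunitinib, or to both drugs at these doses (the combination), and all 4 cultures shared the same medium with fetal bovine serum. Dihydroberberine is berberine, an isoquinoline alkaloid, in reduced form, and sunitinib inhibits receptor tyrosine kinases. No interferon was among the treatments, so the levels are those of cells without added ligand. Each condition was measured on 1 array, so no test between conditions was possible, the values carry no replicate error, and every "higher" or "lower" below compares single arrays. In RNA from whole cultures, fewer cells with a transcript and less of it per cell cannot be told apart.

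Type I and type III interferons bind receptors that activate the kinases JAK1 and TYK2, which phosphorylate STAT proteins. STAT2 and IRF9 are subunits of ISGF3, the factor that binds the interferon-stimulated response element (ISRE) and turns on a large set of genes. Their products degrade viral RNA, trap it, block virus entry or add the ubiquitin-like protein ISG15 to other proteins. Many of them keep a low tonic level in epithelial cells without infection, and unphosphorylated STATs with IRF9 are known to contribute to it.

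The ISRE is the sequence feature that ties the effectors to their regulators. The stretch just before the gene start is therefore shown for several effectors. IFITM1, IFITM3, ISG20, ISG15 and OAS1 were lower with sunitinib, both without and with dihydroberberine, and IFIT3 and IFIT5 were not. Sequences are from RefSeq's GRCh38.p14 promoter windows, 5′ to 3′ on the gene's strand, from position -160 to -1 relative to the start, and capitals mark matches to the ISRE core (GAAA, any 2 bases, GAAA) or its reverse complement. They lie at chr11:313880-314039 (+ strand, IFITM1), chr11:320861-321020 (- strand, IFITM3), chr15:88638856-88639015 (+ strand, ISG20), chr1:1013337-1013496 (+ strand, ISG15), chr10:89327837-89327996 (+ strand, IFIT3), chr10:89414408-89414567 (+ strand, IFIT5) and chr12:112906802-112906961 (+ strand, OAS1).
IFITM1: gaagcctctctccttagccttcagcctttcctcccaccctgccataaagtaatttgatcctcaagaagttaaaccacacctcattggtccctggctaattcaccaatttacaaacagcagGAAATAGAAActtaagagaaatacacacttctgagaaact
IFITM3: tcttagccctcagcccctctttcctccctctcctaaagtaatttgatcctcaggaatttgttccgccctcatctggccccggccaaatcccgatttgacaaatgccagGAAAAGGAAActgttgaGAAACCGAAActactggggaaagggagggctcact
ISG20: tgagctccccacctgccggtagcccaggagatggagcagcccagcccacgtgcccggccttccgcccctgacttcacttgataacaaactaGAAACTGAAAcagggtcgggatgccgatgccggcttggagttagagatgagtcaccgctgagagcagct
ISG15: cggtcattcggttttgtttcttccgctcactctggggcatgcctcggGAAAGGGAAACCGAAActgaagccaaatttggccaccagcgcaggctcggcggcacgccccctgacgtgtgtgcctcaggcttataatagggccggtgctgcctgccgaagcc
IFIT3: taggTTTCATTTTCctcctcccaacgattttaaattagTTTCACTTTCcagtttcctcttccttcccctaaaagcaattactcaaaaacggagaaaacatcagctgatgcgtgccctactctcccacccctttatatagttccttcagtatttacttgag
IFIT5: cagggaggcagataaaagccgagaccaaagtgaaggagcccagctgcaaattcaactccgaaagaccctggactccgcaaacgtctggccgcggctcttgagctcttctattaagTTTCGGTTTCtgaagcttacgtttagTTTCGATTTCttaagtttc
OAS1: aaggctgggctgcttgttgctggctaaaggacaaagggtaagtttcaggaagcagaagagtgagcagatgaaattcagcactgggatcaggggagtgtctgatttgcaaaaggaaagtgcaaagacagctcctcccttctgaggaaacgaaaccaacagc
The 2 matches of ISG15 overlap, and those of IFIT3 and IFIT5 run on the opposite strand to those of IFITM1, IFITM3, ISG20 and ISG15. A further match of IFITM1 and of IFIT5 spans the gene start. No match with exactly 2 bases between the copies of GAAA lies in the window of OAS1. Its printed stretch does hold gaaacgaaa near the gene start, where the copies lie closer together, and the search did not count that spacing. The lack of a match thus does not show that OAS1 lacks an ISRE.

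Promoter windows of 300 bases, from 250 before to 50 after the start, matched 29 of the 38 genes by symbol. The ISRE core, searched on both strands, was in 20 of these 29 genes, or 68.97%, against 4.38% of the 27305 genes in the whole table. All 20 were effectors (of 26 with a window), and none of the 3 regulators with a window (IRF1, IRF9 and STAT2) held it. The GAS core TTCNNNGAA, the form of element that STAT dimers bind and a palindrome, was in 9 of the 29 genes, or 31.0%, against 9.38% of all genes. IRF1 held it as TTCCCCGAA starting at position -124 and IRF9 as TTCTGGGAA starting at -63. A match is a description of letters, and genes with an ISRE core were found both among those that were lower and among those that were higher with a drug.

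The deposited values are log2 signals. A floor was set at log2 6.75, the median over all gene probe sets and arrays, and it does not mark detection. Of the 38 genes 36 had a probe set of their own. STAT2 had no named probe set, and the probe set annotated to USP18 was shared with 4 other genes, so both are without a value. The mean over the 4 arrays was at or above the floor for 25 of the 36, of which 4 were regulators and 21 effectors, and 22 genes were above it on all 4 arrays. The 11 genes under it were IRF7, OAS3, IFIT2, MX1, MX2, HERC5, HERC6, IFIH1, DDX60, BST2 and RSAD2, with values between 4.19 and 7.10, and 9 of them were under the floor on every array. Just inside lay RIGI (mean 6.85), IFIT3 (6.86) and IFIT1 (6.87), and just outside OAS3 (6.62). MX1, MX2 and RSAD2, a dynamin-like GTPase pair and a radical SAM enzyme that block viral replication, are among the classic markers of an acute interferon response, and their probe sets stayed between 4.19 and 5.09 on the 4 arrays. The 6 interferon ligands with a probe set of their own (IFNA2, IFNB1, IFNE, IFNK, IFNG and IFNL1) lay between 3.56 and 5.09, under the floor on all arrays.

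**Figure D1:**
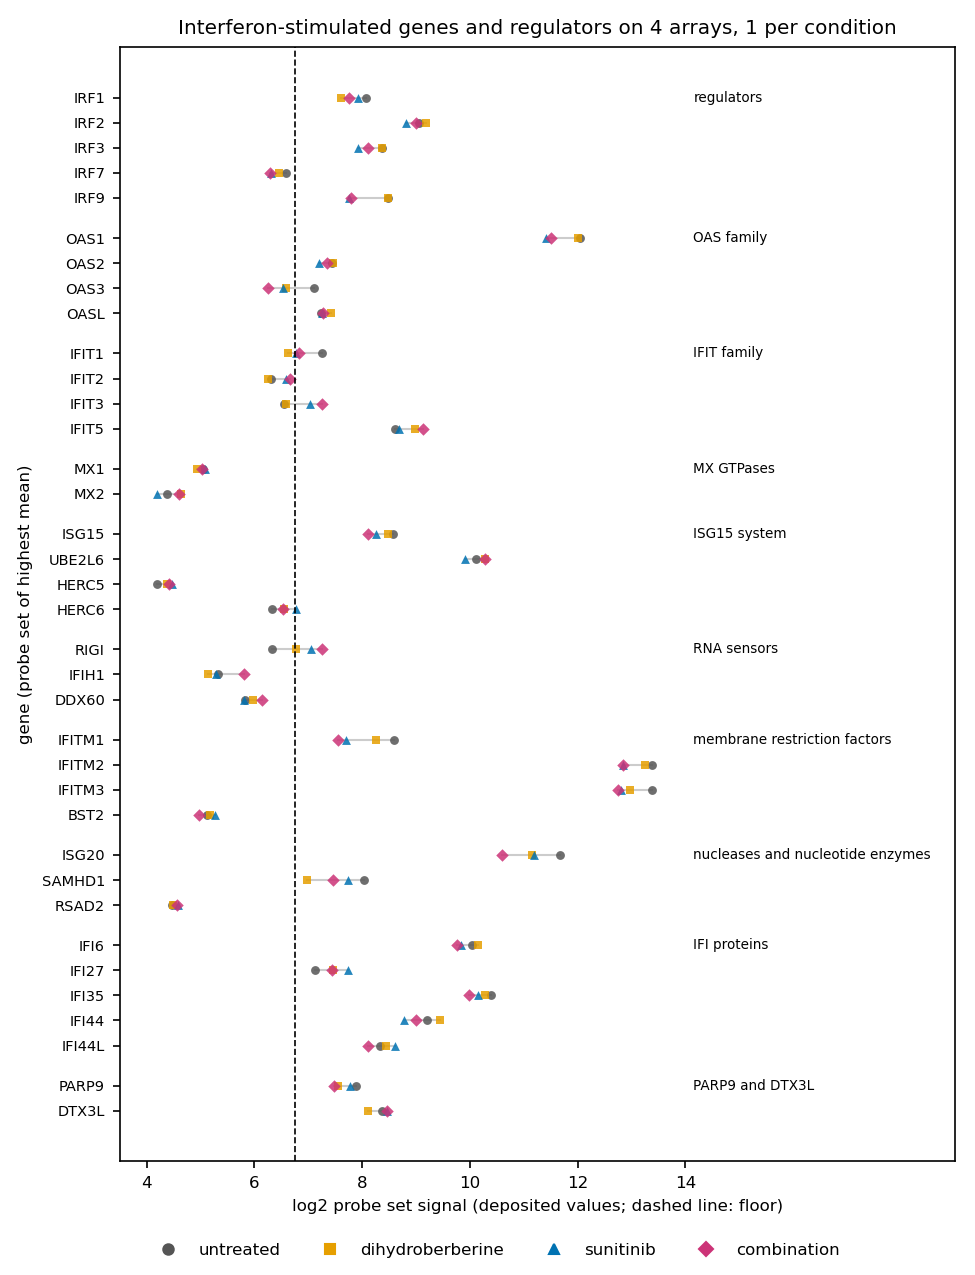
Log2 signal (x axis) of the 36 measured genes (y axis, by role), with 1 point for each of the 4 arrays and a grey line from the lowest to the highest; the dashed line is the floor at log2 6.75. IFITM1, IRF9, OAS1 and ISG20 are lower on both sunitinib arrays than on the untreated array, while RIGI and IFIT3 cross the floor upward.

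The 4 arrays had median log2 signals between 6.73 and 6.76, and correlated with each other at 0.986 to 0.994 across gene probe sets. Keratins KRT8, KRT18 and KRT19 lay between 13.39 and 14.39, while the epithelial markers EPCAM and CDH1 were under the floor on all arrays. Of 9 markers of other cell types (PTPRC, CD14, CD68, CD3E, MS4A1, PECAM1, COL1A1, LYZ and NKG7) 7 were under the floor on every array. CD14 and CD68 were above it by their mean and moved with the drugs. CD14 read 8.82 untreated, 6.75 with dihydroberberine, 6.27 with sunitinib and 5.76 with both, and CD68 read 8.16, 8.42, 7.33 and 7.06. The summed signal of the 9 markers was log2 10.11, 9.71, 9.27 and 9.06 in the same order, and its part in the results was not tested. The pan-leukocyte marker PTPRC stayed between 3.81 and 3.92.

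The question of what sunitinib did to these genes could be read from 2 pairs of arrays with no array in common, sunitinib against untreated and the combination against dihydroberberine. Of the 25 genes above the floor, 15 were lower in both pairs, 4 were higher in both and 6 went opposite ways. Over all 10430 genes above the floor 32.5% were lower in both pairs and 26.2% higher in both, where 60.0% of these genes were lower in both, and the difference was not tested. The median difference of the 25 genes was log2 -0.24 with sunitinib alone, where that of all genes was -0.04, and -0.18 in the second pair, where that of all genes was 0.0003. Over all 36 measured genes, including those under the floor, the medians were -0.19 and -0.09. The sizes were modest. Against untreated cells, sunitinib gave 3 genes lower by 1.5-fold or more (IRF9, OAS1 and IFITM1), beside a background of 3.52% of all genes, and 1 was at least 1.5-fold higher (IFI27), beside 1.16%. In the second pair 2 were at least 1.5-fold lower (IRF9 and IFITM1), beside 2.42%, and 0 higher, beside 9.93%. At 2-fold the counts of higher and lower genes were 0 and 0 with sunitinib alone (background 0.134% and 0.441%), and 0 and 0 in the second pair (2.54% and 0.384%).

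**Figure D2:**
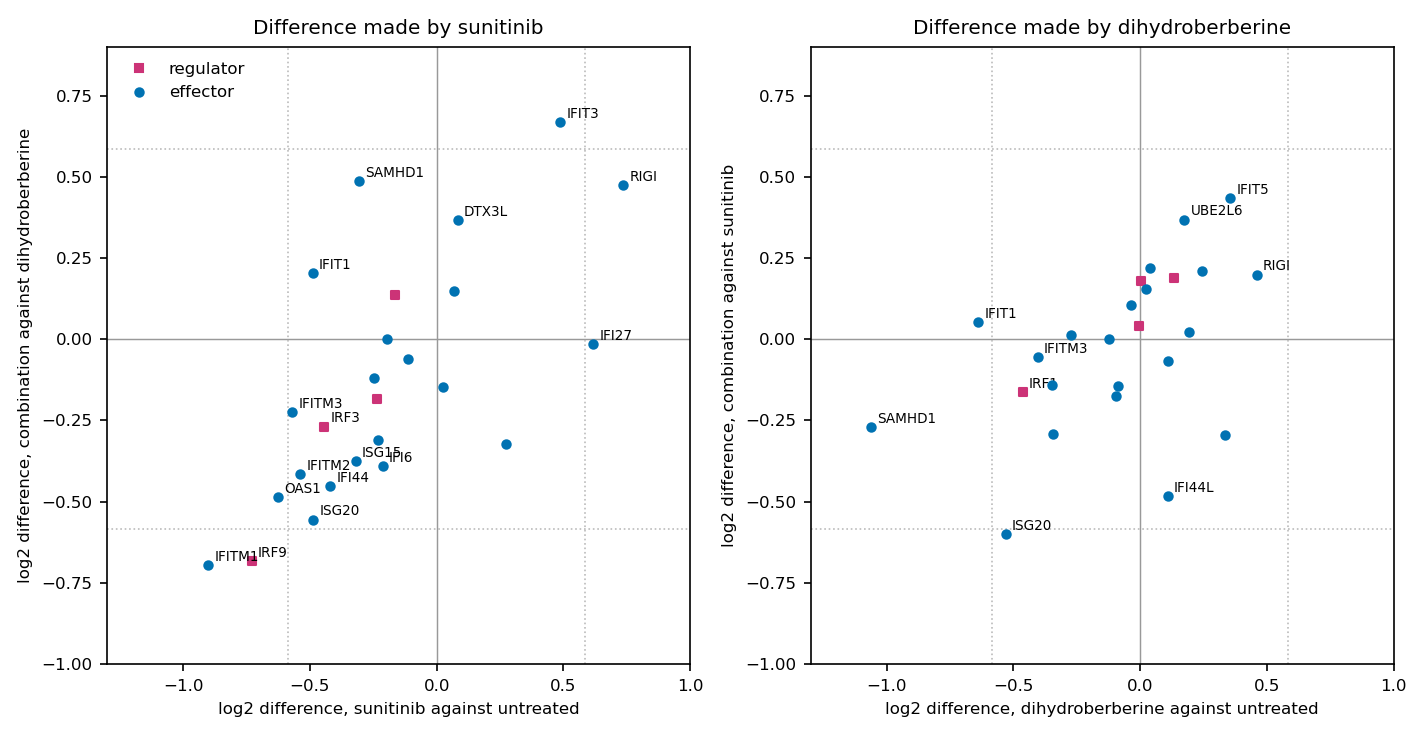
Log2 difference of each of the 25 genes above the floor in the 2 pairs of arrays that show the same drug and share no array, for sunitinib (left) and dihydroberberine (right); squares are regulators, circles effectors, dotted lines mark 1.5-fold. For sunitinib 15 points lie in the lower left field, with IFITM1 and IRF9 past 1.5-fold on both axes, whereas for dihydroberberine 8 do.

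All 4 regulators above the floor were lower with sunitinib alone, as were 56.3% of all genes. In the second pair 3 of these regulators were lower, where 49.9% of all genes were, and IRF1 was 0.14 higher. IRF7, under the floor, was lower in both pairs. IRF9, the DNA-binding subunit of ISGF3, had values of 8.49 in untreated cells, 8.48 with dihydroberberine, 7.76 with sunitinib and 7.80 with both drugs. The sunitinib arrays thus lay 1.66-fold and 1.61-fold below their partners, and the arrays without sunitinib were nearly equal. The other probe sets of IRF9 above the floor were lower as well, but by less, down to a difference of -0.03 with sunitinib alone and -0.28 in the second pair. With probe sets averaged the differences were -0.46 and -0.55, both under 1.5-fold. IRF3, which carries the signal of viral RNA sensors to the IFNB1 gene, read 8.37, 8.37, 7.92 and 8.10 in the same order of arrays. All 5 of its probe sets above the floor were lower on the sunitinib arrays in both pairs, between -0.48 and -0.15. IRF2, an antagonist of IRF1 at shared sites, read 9.05, 9.19, 8.82 and 9.01. IRF1, a factor induced by interferon gamma, read 8.08, 7.62, 7.92 and 7.75, and was lowest with dihydroberberine alone. IRF7, which amplifies interferon production, read 6.59, 6.45, 6.31 and 6.30, all under the floor. The median of the 4 regulators above the floor was -0.34 with sunitinib alone and -0.23 in the second pair, and that of the 21 effectors -0.23 and -0.15. For scale, the SD between probe sets of a gene had a median of 0.13. The levels of regulators and effectors were not ranked against each other, since signals of different probe sets are not on a common scale.

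Among the effectors the IFITM genes, which encode membrane proteins that hinder virus fusion, were lower together. IFITM1 read 8.60 in untreated cells, 8.25 with dihydroberberine, 7.69 with sunitinib and 7.55 with both. It was 1.87-fold lower with sunitinib than untreated, the combination lay 1.62-fold under dihydroberberine and 2.06-fold under untreated cells. Both sunitinib values were below both values without sunitinib. Its second probe set gave -0.97 and -0.64 for the 2 pairs. IFITM2 read 13.38, 13.25, 12.84 and 12.84, so both sunitinib arrays were below both others. IFITM3 read 13.38, 12.98, 12.81 and 12.75, again with both sunitinib arrays lowest and a smaller gap between dihydroberberine and sunitinib. Against untreated cells IFITM2 was 1.45-fold lower with sunitinib and IFITM3 1.49-fold, just under the size counted. The 3 genes are close paralogs, and the probe sets of IFITM2 and IFITM3 are of the kind that can bind related transcripts, so they are not independent readings. The promoter windows of IFITM1 and IFITM3 held 2 ISRE matches each. BST2, which tethers budding virus to the cell surface, was under the floor on all arrays, between 4.97 and 5.27.

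OAS1 makes the 2′-5′ oligoadenylates that activate RNase L. Its signal was 12.04 untreated, 12.001 with dihydroberberine, 11.41 with sunitinib and 11.52 with both drugs. Sunitinib alone thus gave 1.54-fold lower than untreated, the combination lay 1.40-fold under dihydroberberine, and dihydroberberine alone left it within 0.03. After quantile normalization of the arrays the difference with sunitinib alone was -0.52, and with its probe sets averaged -0.54, both under 1.5-fold. All 4 of its probe sets were lower, between -0.64 and -0.42 in the first pair and between -0.54 and -0.35 in the second. OAS2 read 7.44, 7.47, 7.19 and 7.35, and OASL, a relative that binds RIGI, 7.23, 7.42, 7.25 and 7.28, neither of them past 1.5-fold. OAS3 read 7.10 in untreated cells and 6.59, 6.53 and 6.25 with dihydroberberine, sunitinib and both, so only the untreated value was above the floor and each drug gave at least 1.27-fold lower. A brighter probe set is annotated to OAS2 and OAS3 together and cannot be assigned to either. It read 11.10, 10.26, 10.36 and 10.11, and a second shared probe set 8.80, 8.16, 8.33 and 8.06. Both were lower on all 3 arrays with a drug, as was the OAS3 probe set. The OAS2 probe set read above was not lower with dihydroberberine alone. Other probe sets of OAS2 alone, with means under the floor, ran from -0.38 to 0.25 in that comparison.

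In the ISG15 system no gene above the floor passed 1.5-fold in any comparison. ISG15, the ubiquitin-like modifier, read 8.57 untreated, 8.48 with dihydroberberine, 8.25 with sunitinib and 8.11 with both, and was 1.38-fold lower in the combination than untreated. Its sunitinib values were below its values without sunitinib. UBE2L6, the conjugating enzyme for ISG15, read 10.11, 10.28, 9.91 and 10.28, so the combination array stood level with dihydroberberine. The ligases HERC5 and HERC6 had means under the floor, with HERC5 between 4.19 and 4.47 and HERC6 between 6.33 and 6.77.

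The IFI group holds proteins named only for their induction by interferon. IFI44, whose product is cytoplasmic, read 9.21 untreated, 9.45 with dihydroberberine, 8.79 with sunitinib and 8.997 with both. Its 3 probe sets above the floor were all lower with sunitinib in both pairs, between -0.68 and -0.33. IFI6, a mitochondrial survival factor, read 10.04, 10.15, 9.83 and 9.76, and IFI35, a partner of NMI, 10.38, 10.29, 10.15 and 9.98. Both were lower on the sunitinib arrays than on either other array, by 1.31-fold at most for IFI6 and 1.32-fold at most for IFI35. IFI27 went the other way with sunitinib alone. It read 7.12 untreated, 7.46 with dihydroberberine, 7.74 with sunitinib and 7.45 with both. That is 1.53-fold higher with sunitinib than untreated, but the combination differed from dihydroberberine by -0.01. Its second probe set above the floor gave 0.42, under 1.5-fold, and -0.23 for the same pairs. IFI44L, a neighbour of IFI44, read 8.33, 8.44, 8.60 and 8.12, highest with sunitinib alone and lowest with both drugs. Its second probe set above the floor was also highest with sunitinib alone, but read 7.24 untreated, 7.21 with dihydroberberine and 7.35 with both. That probe set gave 0.76 with sunitinib against untreated and -0.66 for the combination against sunitinib, both past 1.5-fold. The first gave 0.27 and -0.48 there, both under 1.5-fold.

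RIGI, IFIT3, IFIT5 and DTX3L were the 4 genes higher in both sunitinib pairs. For IFIT5 and DTX3L the differences with sunitinib alone were 0.07 and 0.08, under the SD of 0.13 between probe sets. Their second probe sets above the floor gave 0.38 and 0.22. With dihydroberberine alone IFIT5 differed by 0.36, and by 0.04 on its second probe set. RIGI, the cytoplasmic sensor of viral RNA with a free 5′ triphosphate, read 6.32 untreated, 6.78 with dihydroberberine, 7.06 with sunitinib and 7.25 with both drugs. The untreated value is under the floor, so the combination was at least 1.42-fold higher, and the deposited values differed by 0.93. A second probe set of nearly the same mean read 6.24, 7.05, 6.65 and 7.44, with a difference of 1.20 for the combination, and there the dihydroberberine difference, 0.82, was larger than that of sunitinib, 0.41. IFIT3, an adaptor of the complex that traps foreign RNA, read 6.55, 6.59, 7.04 and 7.26, at least 1.42-fold higher in the combination than untreated. Both genes are near the floor. IFIT3 was above it only on the 2 sunitinib arrays, and RIGI only on the 3 arrays with a drug. Their place among the counted genes thus rests on the arrays where they were higher. Background probes with 20 G or C bases read 6.70, 7.15, 6.99 and 6.95 on the same arrays. The part of that background in the values of RIGI, IFIT3 and IFI27 was not tested. IFIT5, which binds RNA triphosphate ends, is well above it and read 8.62, 8.97, 8.69 and 9.12, 1.42-fold higher in the combination than untreated. Its second probe set differed by 0.25 in that comparison. IFIT1, the cap-binding member, was lower instead. It read 7.26, 6.62, 6.77 and 6.82, so each array with a drug was below the untreated array, by at least 1.42-fold for dihydroberberine. IFIT2 stayed between 6.25 and 6.67. The other RNA sensors were under the floor on all arrays, IFIH1 between 5.14 and 5.82 and the helicase DDX60 between 5.81 and 6.15.

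**Figure D3:**
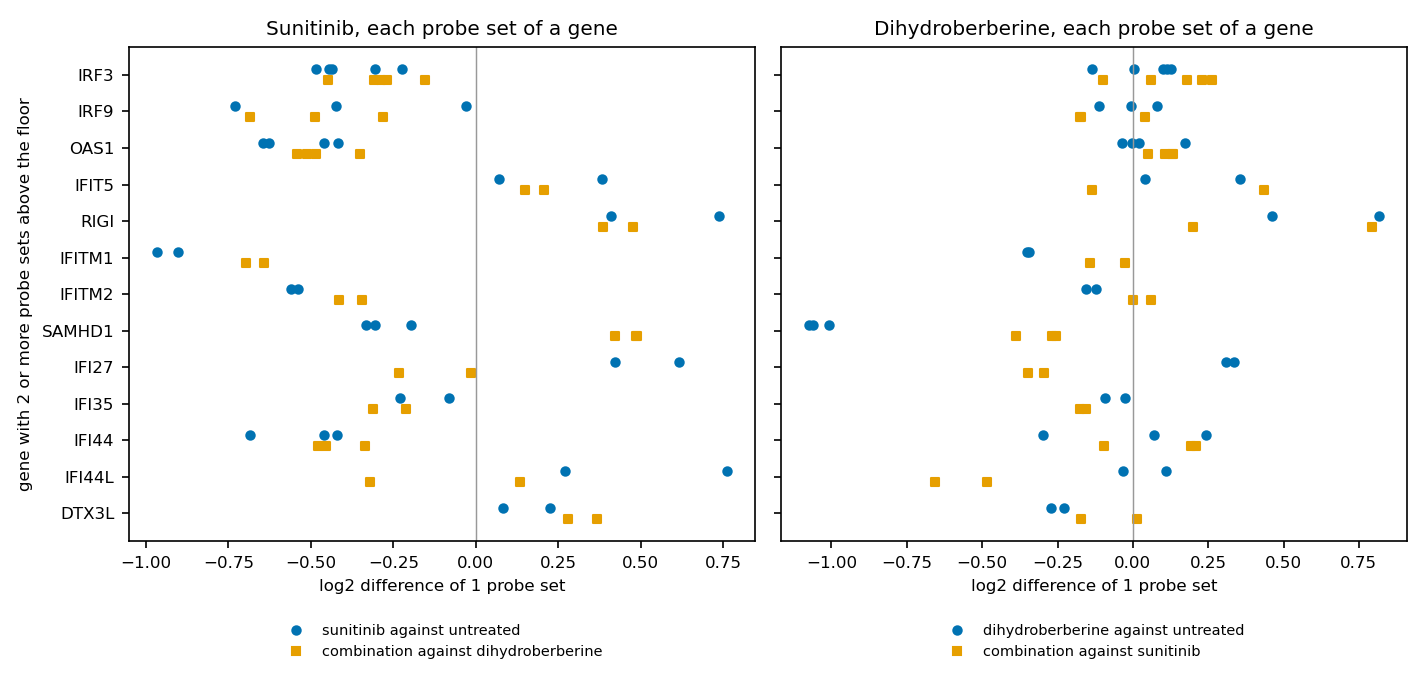
Log2 difference (x axis) of every probe set with a mean above the floor, for the 13 genes with at least 2 of them (y axis), in the 2 pairs of arrays for sunitinib (left) and dihydroberberine (right). With sunitinib against untreated the probe sets of each of the 13 genes lie on 1 side of 0, and for dihydroberberine against untreated those of 8 genes do.

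With dihydroberberine the genes were divided in direction, as were all genes above the floor. With the drug alone 12 of the 25 genes were higher and 13 lower, with a median of -0.005 beside -0.04 for all genes. Of all genes 45.9% were higher and 54.1% lower. In the combination against sunitinib 14 were higher and 11 lower, with a median of 0.01 beside 0.01. There 51.1% of all genes were higher and 48.8% lower. With the drug alone 1 gene was at least 1.5-fold lower (SAMHD1), beside 12.2% of all genes, and 0 higher, beside 4.25%. In the combination against sunitinib 1 was lower (ISG20), beside 1.34%, and 0 higher, beside 3.37%. At 2-fold, 0 genes were higher and 1 lower with the drug alone (0.882% and 3.23%), and 0 higher and 0 lower in the second comparison (0.614% and 0.0863%). SAMHD1, the dNTP hydrolase that starves reverse transcription, read 8.04 untreated, 6.98 with dihydroberberine, 7.73 with sunitinib and 7.46 with both. It was 2.09-fold lower with dihydroberberine alone, and its 3 probe sets above the floor gave between -1.07 and -1.01. With sunitinib present the difference was -0.27, smaller than with dihydroberberine alone. On that array the 18S rRNA control also read lower than untreated, at 13.46 against 14.17 for its middle part, and the combination at 13.94, and its part in the SAMHD1 value was not tested.

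ISG20, a 3′ to 5′ exonuclease of single-stranded RNA, was lower with each drug and lowest with both. It read 11.68 untreated, 11.15 with dihydroberberine, 11.19 with sunitinib and 10.59 with both. The single drugs gave 1.44-fold and 1.40-fold, and the combination 2.12-fold, the largest fold against untreated cells among the 25 genes in that comparison. The 2 single-drug differences add up to -1.02, and the combination measured -1.09, a deviation from additivity of -0.07. For IFITM1 the sum was -1.25 and the combination measured -1.04. Over the 25 genes the median deviation was 0.08 and over all genes 0.07, and 4 of the 25 deviated by at least 1.5-fold, as did 15.4% of all genes. Deviations are from deposited values, not raised to the floor. Those 4 were SAMHD1 at 0.79, IFIT1 at 0.69, IFI27 at -0.63 and IFI44L at -0.59, and the dihydroberberine value of IFIT1 behind its deviation was under the floor.

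In the combination against untreated cells 4 genes were at least 1.5-fold lower (IRF9, IFITM1, IFITM3 and ISG20), beside 6.95% of all genes, and 0 were at least 1.5-fold higher, beside 6.55%. At 2-fold 2 were lower (IFITM1 and ISG20), beside 1.39%, and 0 higher, beside 0.93%. By sign 18 of the 25 were lower, as were 53.03% of all genes, with a median of -0.28 beside -0.02. Over all 36 measured genes 22 were lower and the median was -0.18. The lowest of the 4 arrays was the sunitinib array for 8 of the 25 genes and the combination array for 8, against 20.02% and 24.02% of all genes, and the highest was the untreated array for 12, against 33.8%. PARP9 and its partner DTX3L are an ADP-ribosyltransferase and a ubiquitin ligase that work as a pair. PARP9 read 7.89 untreated, 7.54 with dihydroberberine, 7.78 with sunitinib and 7.49 with both, highest untreated and lowest in the combination. DTX3L, which shares a bidirectional promoter with PARP9, read 8.37, 8.10, 8.46 and 8.47.

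**Figure D4:**
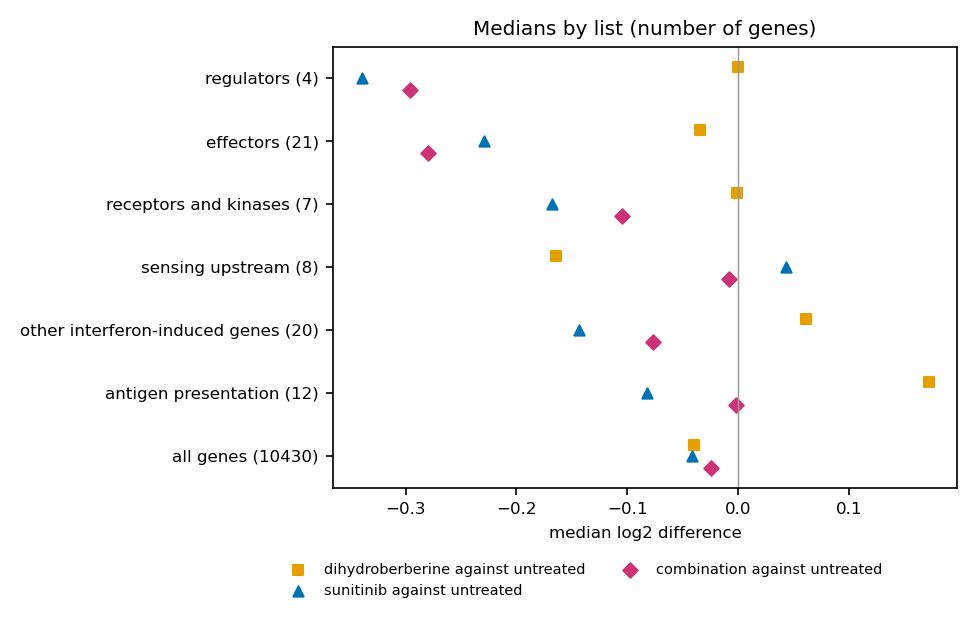
Median log2 difference (x axis) against untreated cells of the genes above the floor in each list (y axis, number of genes in brackets), with 1 marker for each of the 3 arrays with a drug. The medians of regulators and effectors are at -0.34 and -0.23 with sunitinib and near 0 with dihydroberberine.

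The rest of the pathway was read from lists of other genes. Of 7 receptor and kinase genes above the floor 6 were lower with sunitinib alone, as were 56.3% of all genes, at a median of -0.17. There 0 passed 1.5-fold, beside 3.52% of all genes lower and 1.16% higher. In the combination against dihydroberberine 4 were lower and 3 higher, where 49.9% of all genes were lower, at a median of -0.06. With dihydroberberine alone IFNGR1, the ligand-binding chain of the interferon gamma receptor, was 0.65 higher and TYK2, a kinase of the type I receptor, 0.63 lower on the log2 scale, 1 in each direction of 7, beside 4.25% of all genes higher and 12.2% lower. JAK1 read 11.17, 11.63, 11.02 and 11.52, higher on the arrays with dihydroberberine. The lambda receptor chain IFNLR1 had a mean under the floor.

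Of 8 genes of RNA and DNA sensing upstream of interferon 2 were lower with dihydroberberine alone by 1.5-fold and 0 higher, beside 12.2% and 4.25% of all genes. TRIM25, the ubiquitin ligase that activates RIGI, read 9.84 untreated, 8.265 with dihydroberberine, 10.07 with sunitinib and 9.80 with both. MAVS, the mitochondrial adaptor of RIGI, read 9.16, 8.29, 8.83 and 8.91, but its 6 probe sets above the floor ran from -0.90 to 0.06 in that comparison. TBK1, the kinase of IRF3, read 9.51, 9.27, 9.75 and 10.13. It was the 1 gene of the list at least 1.5-fold higher in the combination than untreated, beside 6.55% of all genes. TRIM25 was thus lowest on the dihydroberberine array by more than 2-fold, and it was read from 1 probe set. The 18S rRNA control was also lowest on that array, and its part in the TRIM25 and MAVS values was not tested.

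Of 20 other interferon-induced genes above the floor 2 were at least 1.5-fold lower with sunitinib alone and 0 higher, beside 3.52% and 1.16% of all genes, and the median was -0.14 beside -0.04. The 2 were PML and SP100, which build the same nuclear bodies. PML read 8.92, 9.04, 8.25 and 8.41, and SP100 9.45, 9.95, 8.78 and 9.35, and both were past 1.5-fold in the second pair too. Their probe sets did not all go the same way, from -1.11 to 0.28 for PML and from -0.66 to 0.08 for SP100 with sunitinib alone. EPSTI1 read 8.32, 9.05, 7.97 and 8.63, higher with dihydroberberine in both of its pairs. TRIM14, an adaptor that binds MAVS, was the 1 gene at least 1.5-fold lower with dihydroberberine alone, beside 12.2% of all genes. Its difference was -0.62. IFI16, a nuclear DNA sensor, was 0.65 higher in the combination than with sunitinib, whereas PARP12 differed by -0.59 there.

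Of 12 antigen presentation genes above the floor 9 were higher with dihydroberberine alone, as were 45.9% of all genes, at a median of 0.17. Of these 1 passed 1.5-fold (HLA-B), beside 4.25% of all genes. In the combination against sunitinib 7 of the 12 were higher and 5 lower, at a median of 0.05, where 51.1% of all genes were higher. There 0 were at least 1.5-fold higher, beside 3.37% of all genes. HLA-B, a class I heavy chain, read 11.67 untreated, 12.46 with dihydroberberine, 11.93 with sunitinib and 12.40 with both, with its 2 probe sets at 0.78 and 0.79 for dihydroberberine. The immunoproteasome subunit PSMB9 read 10.79, 10.88, 10.69 and 10.63, and the peptide transporter subunit TAP1 10.33, 10.48, 10.19 and 10.42. With sunitinib alone 7 of the 12 were lower at a median of -0.08, where 56.3% of all genes were lower at -0.04. In the combination against dihydroberberine 10 were lower at a median of -0.15, where 49.9% of all genes were lower at 0.0003. In either pair 0 passed 1.5-fold. Of all genes 3.52% were lower and 1.16% higher by that size in the first pair, and 2.42% and 9.93% in the second. Among the brakes of the pathway, SOCS3, an inhibitor of JAK kinases, read 11.05, 11.09, 10.79 and 10.81. PIAS1, a SUMO ligase of the pathway, read 8.31, 8.89, 8.52 and 8.81, at least 1.5-fold higher with dihydroberberine alone. STAT6 was the 1 of 4 other STAT and IRF genes above the floor past 1.5-fold, lower with dihydroberberine alone, beside 12.2% of all genes. The difference was -0.59, although its 4 probe sets ran from -0.79 to 0.16.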

How the data were processed

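The authors deposited log2 probe set summaries of 4 arrays, and per the submitters' processing notes Affymetrix Expression Console was used. How signals were summarized and scaled, and with which version, is not given in the sources used here. The log2 scale was inferred from a range of 3.01 to 15.36. Per the labels' protocols, RNA was amplified and biotin-labelled with a GeneChip 3′ IVT kit, whereas the design text names an Agilent array and the label field Cy3; the probe set names are Affymetrix's.

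A platform annotation table gave 1 gene for 44988 of 49293 gene probe sets, several for 1832 and none for 2473. Each gene was read from its probe set of highest mean. Genes with a mean at or above the floor (log2 6.75) entered counts. Values under the floor were raised to it for folds and counts, written "at least", and medians used deposited values. Genes past 1.5-fold were counted without a test, as 1 array per condition leaves no error to test against, so their number limits precision. The SD between probe sets of a gene, median 0.09 to 0.13 in the 5 comparisons over 6000 genes, is technical and does not measure the error between arrays. All regulators, and effectors past 1.5-fold in a comparison, are given in full, and other genes of the pathway where past 1.5-fold, at most 6 per list; further genes were named after their values were seen. The members, lists and the 1.5-fold size were chosen with earlier results of these data known. Calculations used Python 3.11.15 with pandas 2.3.3. Calls were tested on simulated data with 2-fold changes in genes well above the floor. That test does not cover calls close to 1.5-fold or genes near the floor.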

Additional observations from a re-analysis of the deposited data

Results flagged for a closer look

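SAMHD1 had a difference of -0.31 with sunitinib in cells without dihydroberberine and of 0.49 in cells given it. IFI44L had 0.27 and -0.32 in the same pairs, but its second probe set above the floor gave 0.76 and 0.13, of the same sign. IFI27 had 0.33 with dihydroberberine in cells without sunitinib and -0.30 in cells given it. On its probe set of highest mean, each of these genes had effects of 1 drug with opposite signs with and without the other. Both effects were larger than 2 times the median SD between probe sets. With 1 array per condition the difference between them was not tested. In the combination against dihydroberberine the middle part of the 18S rRNA control was 0.48 higher and the Alu control 0.44. The part of this shift in the SAMHD1 value of 0.49 was not tested.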

How the results depend on the processing

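Alternatives were averaging a gene's probe sets, a filter on any array, no filter with values not raised, a floor at the 75th percentile (log2 8.69), quantile normalization, centring on the array median, 2-fold in place of 1.5-fold, and the other pair of arrays. Centring, quantile normalization and the filter on any array moved no count by over 1.5 times and no median by the SD between probe sets, but under quantile normalization OAS1 with sunitinib alone (-0.52) and IFITM3 in the combination against untreated (-0.57) were under 1.5-fold. Averaging probe sets left 18 of the 25 genes above the floor, and SAMHD1 was not among them. The count of lower genes was then 0 with dihydroberberine alone, 1 with sunitinib alone and 1 in the combination against dihydroberberine. That of higher genes with sunitinib alone was 0. With no filter 2 genes were lower with dihydroberberine alone, 2 higher with sunitinib alone, 2 higher in the combination against untreated and 2 higher against dihydroberberine, and the effectors' median in the combination against untreated was -0.094. The 75th percentile floor left 10 of the 25 genes. The counts of lower genes there were 0 with dihydroberberine alone, 1 with sunitinib alone, 2 in the combination against untreated and 0 against dihydroberberine, and 0 were higher with sunitinib alone. IRF2 was the only regulator left there. The regulators' medians were thus its values, 0.14 with dihydroberberine alone and -0.048 in the combination against untreated. For effectors the medians were -0.42 with sunitinib alone, -0.40 in the combination against untreated and -0.39 against dihydroberberine. In the last of these the median of all members was -0.35. At 2-fold the lower counts were 0 with sunitinib alone, 2 in the combination against untreated, 0 against sunitinib and 0 against dihydroberberine, and the higher count with sunitinib alone was 0. In the other pair of arrays 0 genes were higher with sunitinib, and IFI27 reversed to -0.014. With probe sets averaged IRF9 was under 1.5-fold at -0.46 with sunitinib alone, -0.57 in the combination against untreated and -0.55 against dihydroberberine, as were OAS1 at -0.54 and IFI27 at 0.52 with sunitinib alone. The causes were not tested, beyond fewer genes at the stricter floor and after averaging. No paired analysis was possible because each condition has 1 array. The direction of the lower medians with sunitinib held under every alternative run for all members, regulators and effectors. At the 75th percentile floor the regulators were IRF2 alone. Signal near the background limits IFIT1, IFIT3, RIGI, IFI27 and the 11 genes under the floor.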
